A study of Mus musculus with 18 samples.

Results

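The 9 control livers of a study of 3 mouse lines were described as one set, without setting them against their mutants as the main question. They were the 9 of 18 arrays whose titles read Control, 3 from each line. The Nrf1 control mice were Nrf1(dN/+) of a mixed strain, the Nrf2 control mice were Nrf2(+/+) on C57BL/6, and the Keap1 control mice were Keap1(Kd/+) of a mixed strain. The Nrf1 and Keap1 controls therefore each carried 1 altered allele, and of the 3 sets the Nrf2 controls alone were labelled as wild type. The other 9 arrays held the mutants of the same lines, which were Nrf1 CKO, Nrf1(dN/-)::Alb-Cre with Cre recombinase driven by the hepatocyte albumin promoter, Nrf2 KO, Nrf2(-/-), and Keap1 KD, Keap1(Kd/-). All 18 samples were labelled as from female mice aged 6 weeks, and total RNA of the liver was hybridised to single-colour Agilent arrays. The questions were which genes gave the highest signal in control liver, and which differed most between arrays of 1 control group.

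The liver makes most of the proteins of blood plasma, clears nitrogen and foreign compounds, and stores or releases glucose and lipid. Hepatocytes carry most of this work, and resident macrophages (Kupffer cells), sinusoidal endothelium, stellate cells and bile duct cells surround them. Many liver genes follow the time of day, the last meal, growth hormone and sex. NRF1 (gene Nfe2l1) and NRF2 (gene Nfe2l2) are related transcription factors that act through the antioxidant response element, and KEAP1 holds NRF2 in check.

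A level is given throughout as the log2 signal of a gene's probe after subtracting the log2 of the 75th percentile of the same array, so that 0 is a signal at that percentile. Signal depends on the probe as well as on the RNA, so the order of genes below is an order of signal and not of RNA molecules. Of 41174 probes, 18855 (45.8%) were well above background on all 9 control arrays. The share of spots above background ran from 51.3% in Nrf2 control 1 to 65.0% in Keap1 control 3. At the level of genes, 17721 were tested, of which 12874 had a symbol, and 14148 (79.8%) were above background on all 9 control arrays. No probe spot was saturated. The arrays lay on 7 slides scanned on 4 days. Nrf1 controls 1 and 2 shared slide 1, Nrf1 control 3 lay on slide 2 with the Nrf1 CKO arrays, the 3 Nrf2 controls shared slide 3 with Keap1 control 1, and Keap1 controls 2 and 3 lay on slides 5 and 7. The labels do not say whether the replicates of a group came from separate animals, so p-values measure only the spread between these samples, which may in part be technical.

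The genes altered in each line were read first. Nfe2l1 had a level of 4.21 over the 9 control livers with a within-group SD of 0.17, and lay between -6.58 and -6.24 in the Nrf1 CKO livers. Those values were below the lowest signal well above background on the Nrf1 CKO arrays (-5.18 to -4.95), so they have no dependable fold. Nfe2l2 averaged 3.52 in control livers with a within-group SD of 0.15, and lay between -5.84 and -3.08 in the Nrf2 KO livers. The lowest of these was below the lowest signal well above background on any Nrf2 KO array, -4.91. Keap1 averaged 4.04 in control livers with a within-group SD of 0.57, and lay between 1.82 and 1.93 in the Keap1 KD livers. Xist was above background on all 9 control arrays. Of the Y-linked genes, Ddx3y, Kdm5d and Eif2s3y were above background on 0 control arrays and Uty on 1.

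Hepatocyte markers had the highest median of the cell type lists, and markers of adipocytes, skeletal muscle and pancreas gave little signal. The 7 hepatocyte markers on the array, among them Alb, Apoa1 and the nuclear receptor Hnf4a, were all above background on the 9 control arrays, with a median level of 7.54. The 6 Kupffer cell markers had a median of 3.72, the 6 endothelial markers 2.20, the 6 stellate cell markers 0.63 and the 5 bile duct markers -0.48. The 4 red cell markers tested stood above these, with a median of 5.15. The 4 neutrophil markers tested had a median of -2.63 and the 3 T cell markers tested -3.34. Of the adipocyte markers 0 of 5 passed the filter for testing, of the skeletal muscle markers 1 of 5, and of the pancreatic acinar markers 3 of 7. Of 4 B and plasma cell markers, 3 were above background on all 9 control arrays and Cd79a on 0. In bulk tissue, fewer cells of a type and less RNA per cell cannot be told apart.

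Most of the named genes of highest signal encoded secreted plasma proteins and lipid carriers. Apoc1, an apolipoprotein of high-density and very-low-density particles, stood first among genes with a symbol. It had levels of 10.85, 10.78 and 10.62 in the Nrf1 controls, 10.40, 10.66 and 10.53 in the Nrf2 controls, and 10.64, 10.50 and 10.15 in the Keap1 controls. The 9 values lay within 0.70 of each other, and Apoc1 ranked 2 or 3 on every control array. The single gene above it, at a mean of 10.86, had no symbol. Lars2, the mitochondrial leucyl-tRNA synthetase, followed at a mean of 10.55. Fgb, the beta chain of fibrinogen, averaged 10.45. Alb, which encodes serum albumin, averaged 10.31 and ran from 9.98 to 10.46 over the 9 arrays. C3, the central complement component, averaged 10.18 by its brightest probe, while its other probe averaged 2.16, so that its rank depends on the probe taken. Ambp and Apoe each averaged 10.17, and haptoglobin (Hp), which binds free haemoglobin, averaged 10.12. The protease inhibitors Serpina1d and Serpina3k, fetuin-A (Ahsg) and the retinol carrier Rbp4 came next, at ranks 11 to 14. Probes of the Serpina1, Serpina3, Mup, Cyp2a, Hsd3b and Hamp families may bind more than 1 family member, and the probe sequences were not used here, so the signal of a named copy is uncertain.

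**Figure D1:**
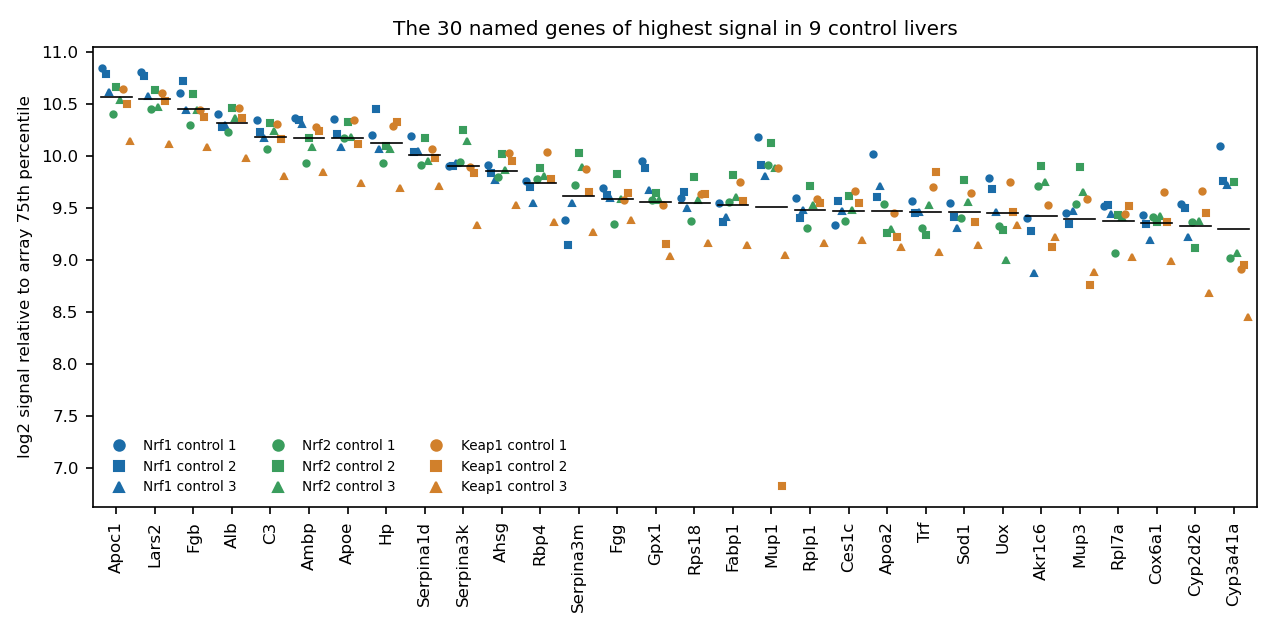
Level (log2 signal relative to the 75th percentile of the array) of the 30 genes with a symbol that had the highest mean in control livers, where points are the 9 control arrays and black lines the mean of the 3 group means. Mup1 in Keap1 control 2, at 6.83, is the lowest point drawn, and Keap1 control 3 is the lowest array for 24 of the 30 genes.

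The 100 genes of highest signal had levels of at least 8.46 (8.46 at rank 100 and also at the next rank), against a median of -0.24 over all tested genes, and 90 of them had a symbol. Plasma proteins and carriers supplied 21 of them out of 35 on the array, with a median level of 8.91. Apolipoproteins supplied 5 of 12, and major urinary proteins, which carry pheromones into urine, 3 of 4. Iron and metal binding genes supplied 4 of 18, among them transferrin (Trf, 9.46) and the ferritin heavy chain (Fth1, 9.25). Drug-metabolising cytochromes P450 supplied 6 of 28, led by Cyp2d26 (9.32) and Cyp3a41a (9.30). Glutathione S-transferases and other conjugating enzymes supplied 5 of 28, with the carboxylesterase Ces1c (9.47) and Gstm1 (9.18) among them. Of 22 genes of glucose metabolism, 4 were included, among them Fbp1 (9.16), which acts in gluconeogenesis. Of 23 fatty acid genes, 3 were included, led by the fatty acid binding protein Fabp1 (9.53). Of 28 amino acid and urea cycle enzymes, 1 was included, the glycine methyltransferase Gnmt (8.91). Cytosolic ribosomal proteins supplied 8 of 44 and subunits of the respiratory chain 7 of 48, with Rps18 (9.55), Rplp1 (9.48) and Cox6a1 (9.35) the highest.

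Each control group had its own 100 genes of highest signal, and these sets overlapped widely. The Nrf1 and Nrf2 controls shared 86 of 100, the Nrf1 and Keap1 controls 86, and the Nrf2 and Keap1 controls 94. The set over all 9 arrays, which is averaged from these groups, shared 90 with that of the Nrf1 controls, 94 with that of the Nrf2 controls and 95 with that of the Keap1 controls. It shared 86 with the 100 highest of the Nrf1 CKO livers, 92 with those of Nrf2 KO and 89 with those of Keap1 KD. Keap1 control 3 was the lowest of the 9 arrays for 60 of the 100 genes, with a median of -0.31 relative to the mean of the 9 arrays. Quantile normalization gives every array the same distribution, so it largely takes out such a shift and cannot test it. After that scaling, Keap1 control 3 was lowest for 11 of the 100 and its median was 0.02. With scaling to the array median it was lowest for 88, with a median of -0.72, so the low position of that array in the plot of highest signals depends on the scaling.

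Spread within a group was measured as the pooled SD, the square root of the mean of the 3 within-group variances, over the 14148 genes above background on all 9 control arrays. The filter leaves out genes that fell to background on 1 array. The median pooled SD was 0.272, and 129 genes (0.912%) reached 1, with values of 1.005 just inside and 0.995 just outside that bound. A pooled SD of at least 0.5 was reached by 1655 genes (11.7%). The 100 genes of highest signal had a median pooled SD of 0.199, and 6 of them reached 0.5. In the 9 mutant arrays, which took no part in choosing these genes, the 100 had a median of 0.216, against 0.239 for all 14148 genes. Mup1 had the highest pooled SD of the 100, 0.92, and its value without Keap1 control 2 was 0.30.

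**Figure D2:**
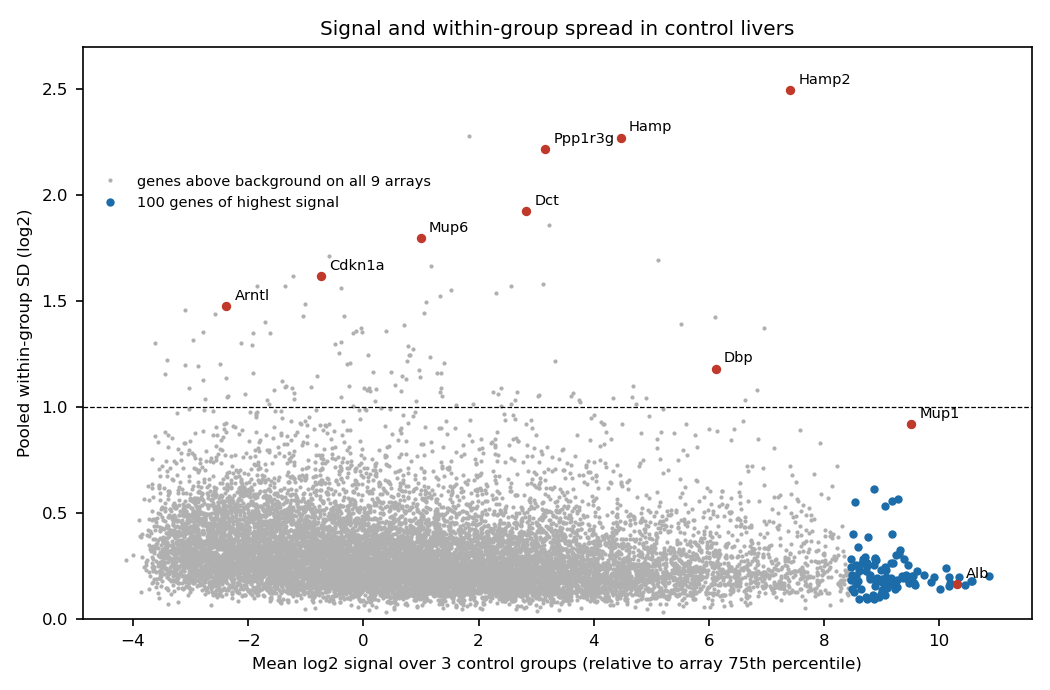
Mean level in control livers (x axis, log2 signal relative to the 75th percentile of the array) and pooled within-group SD (y axis, log2) of 14148 genes, with the 100 genes of highest signal in blue and named genes in red. The dashed line marks an SD of 1, which 129 genes reached, and Hamp2 lies highest among the named genes at 2.50.

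The 3 control groups were not equally tight. The median SD was 0.183 in the Nrf1 controls (2 slides), 0.213 in the Nrf2 controls (1 slide) and 0.294 in the Keap1 controls (3 slides, 2 scan days). Between 2 arrays, the median absolute difference over genes was 0.232 for the 4 pairs of 1 group on 1 slide and 0.277 for the 5 pairs of 1 group on different slides. It was 0.269 for the 3 pairs of different groups on 1 slide and 0.394 for the 24 pairs of different groups scanned on different days. The 129 most variable genes were spread unevenly over the arrays. Keap1 control 2 was the array farthest from its group mean for 38 of them (29.5%), against 14.5% of all genes. Nrf1 control 3 and Nrf2 control 1 were farthest for 20 each (15.5%), against 10.5% and 8.09% of all genes. Keap1 control 3 was farthest for 19 (14.7%), against 24.96% of all genes. Nrf1 control 2 was farthest for 13 (10.1%, against 6.75%), Keap1 control 1 for 12 (9.30%, against 13.2%) and Nrf1 control 1 for 5 (3.88%, against 3.72%). Nrf2 controls 2 and 3 were farthest for 1 each (0.775%), against 12.5% and 5.77% of all genes.

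The spread of these genes was partly shared with the mutant arrays. Of the 129 genes, 77 (59.7%) lay in the highest 5% by pooled SD of the 9 mutant arrays, and 35 (27.1%) had a mutant pooled SD of at least 1, against 0.756% of all 14148 genes. Their median pooled SD was 1.18 in control livers and 0.718 in mutant livers.

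Hepcidin genes varied most of the genes with a symbol. Hepcidin is the liver hormone that closes the iron exporter ferroportin, and its gene Hamp is known to be driven by BMP and SMAD signals when iron is high, by STAT3 in inflammation, and lowered when red cell production is active. Hamp2 is a neighbouring duplicate found in mice. The 2 promoters are shown because both genes moved together, with 92.9% of 297 aligned bases identical. Sequences are from RefSeq (GRCm38.p6), 250 bases before to 50 after the transcript start, with Hamp at chr7:30943980-30944279 and Hamp2 at chr7:30924132-30924431, both on the minus strand. Capitals mark matches, on either strand, to the BMP-response element GGCGCC and to the STAT palindrome TTCNNNGAA.
Hamp: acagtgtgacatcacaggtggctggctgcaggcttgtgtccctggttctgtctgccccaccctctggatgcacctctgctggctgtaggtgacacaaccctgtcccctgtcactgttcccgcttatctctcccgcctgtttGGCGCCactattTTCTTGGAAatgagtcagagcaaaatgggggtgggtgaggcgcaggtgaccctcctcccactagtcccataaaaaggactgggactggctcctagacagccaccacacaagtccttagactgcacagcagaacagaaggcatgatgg
Hamp2: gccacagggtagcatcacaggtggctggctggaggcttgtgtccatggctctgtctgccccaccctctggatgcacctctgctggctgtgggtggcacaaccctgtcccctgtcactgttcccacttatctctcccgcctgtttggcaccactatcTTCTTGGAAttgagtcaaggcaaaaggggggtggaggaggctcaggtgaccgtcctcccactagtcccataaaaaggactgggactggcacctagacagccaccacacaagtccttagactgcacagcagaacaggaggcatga
Of 32544 RefSeq promoters of this length, 11.9% held GGCGCC and 8.33% held TTCNNNGAA. Hamp held a match to each, and Hamp2 a match to the STAT palindrome. A match describes the letters and is no evidence of binding.

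Hamp2 had levels of 9.36, 8.80 and 7.78 in the Nrf1 controls, 8.28, 8.36 and 7.69 in the Nrf2 controls, and 7.47, 0.62 and 8.36 in the Keap1 controls. The single low value was Keap1 control 2, and the other 8 arrays lay between 7.47 and 9.36. The pooled SD of Hamp2 was 2.50, and 0.63 without Keap1 control 2. Hamp had levels of 6.59, 6.47 and 6.05 in the Nrf1 controls, 4.61, 5.25 and 5.57 in the Nrf2 controls, and 2.97, -2.43 and 5.14 in the Keap1 controls. Keap1 control 2 was again lowest, and Keap1 control 1 lay between it and the rest. The pooled SD of Hamp was 2.27, and 0.77 without Keap1 control 2. Among the mutant livers, Keap1 KD 1 alone was similarly low, at -1.17 for Hamp and 3.37 for Hamp2, while the other 8 mutant arrays lay between 4.55 and 6.44 for Hamp and between 6.23 and 9.16 for Hamp2.

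The transferrin receptor and most of the red cell markers tested were also high in Keap1 control 2, while the 17 iron and metal genes as a list were not shifted one way, with 8 above the group mean, 9 below and a median deviation of -0.19. Tfrc, the transferrin receptor, had a level of 2.95 in Keap1 control 2 and lay between -1.06 and 0.56 in the other 8 control arrays. In Keap1 KD 1 it was 3.14. Slc4a1, the band 3 anion exchanger of red cells, was 1.56 in Keap1 control 2, 0.11 in Keap1 control 1, -3.71 in Keap1 control 3 and between -2.91 and -2.07 in the Nrf1 and Nrf2 controls, and its pooled SD of 1.57 was 0.47 without Keap1 control 3. In Keap1 KD 1 Slc4a1 was 1.52, against -3.69 to -2.73 in the other 8 mutant arrays. Of the 4 red cell markers tested, 3 lay above the group mean in Keap1 control 2 (median 1.10) and 1 in Keap1 control 3 (median -1.45). The log2 of their summed signal was 9.28, 9.92 and 7.38 in the 3 Keap1 controls, 8.23 to 8.40 in the Nrf1 controls and 8.67 to 8.995 in the Nrf2 controls. Hbb-bt, a beta globin, had its highest control value, 9.37, in Keap1 control 2, and the erythroid haem synthase Alas2 likewise, 4.92, while Klf1, an erythroid transcription factor, had its lowest there, -2.16. The part of red cells or their precursors in the hepcidin values was not tested.

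The gene whose within-group deviations followed Hamp most closely over the 9 control arrays was Dbp, with r = 0.988, and 0.959 without the 2 arrays farthest on Hamp. For Hamp2 it was Gpcpd1 (r = 0.988, and 0.947 without the 2 farthest arrays), followed by Cep70, Dio1, Lefty1 and Coq10b. For Ppp1r3g it was Mfsd4b1 (r = 0.990, and 0.992 without the 2 farthest arrays), followed by Esrra, Stk35, Gins4 and Tpd52l1. These were picked as the highest of all genes on 9 arrays that share Keap1 control 2, and are descriptions only.

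Clock genes also set Keap1 control 2 apart. The liver clock runs on a loop in which CLOCK and BMAL1 (gene Arntl) switch on Per, Cry, Nr1d1, Dbp and Ciart through E-boxes, DBP, TEF, HLF and the opposing NFIL3 act through D-boxes, and ROR and REV-ERB proteins act on Arntl through ROR elements, so that Arntl and Dbp peak at opposite times of day. The promoters of 3 clock genes that moved in opposite directions are shown to place these elements (RefSeq, GRCm38.p6): Arntl at chr7:113207261-113207560 on the plus strand, Ciart at chr3:95882179-95882478 on the minus strand and Per3 at chr4:151044616-151044915 on the minus strand. Capitals mark matches on either strand to the ROR element TAGGTCA in Arntl, the E-box CACGTG in Ciart and the D-box TTATGTAA in Per3.
Arntl: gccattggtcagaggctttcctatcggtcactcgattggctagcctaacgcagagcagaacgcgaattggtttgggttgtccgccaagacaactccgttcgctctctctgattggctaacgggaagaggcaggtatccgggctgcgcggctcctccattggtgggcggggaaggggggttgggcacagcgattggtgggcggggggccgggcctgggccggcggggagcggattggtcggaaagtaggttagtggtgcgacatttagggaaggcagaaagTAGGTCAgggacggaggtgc
Ciart: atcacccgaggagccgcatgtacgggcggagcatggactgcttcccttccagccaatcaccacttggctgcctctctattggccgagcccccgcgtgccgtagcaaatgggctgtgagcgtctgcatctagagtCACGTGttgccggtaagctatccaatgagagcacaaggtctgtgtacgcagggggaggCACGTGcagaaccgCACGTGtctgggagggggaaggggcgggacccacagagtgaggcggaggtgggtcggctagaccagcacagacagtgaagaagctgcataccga
Per3: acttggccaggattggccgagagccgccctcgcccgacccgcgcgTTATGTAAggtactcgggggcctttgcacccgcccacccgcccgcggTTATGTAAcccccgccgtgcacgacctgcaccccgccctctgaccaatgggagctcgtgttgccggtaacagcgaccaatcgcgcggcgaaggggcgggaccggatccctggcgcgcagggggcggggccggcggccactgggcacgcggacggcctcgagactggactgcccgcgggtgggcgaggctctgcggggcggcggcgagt
TAGGTCA occurred in 2.61% of the 32544 promoters, CACGTG in 7.17% and TTATGTAA in 0.931%. Of 18 listed clock genes with a promoter in the table, 6 held CACGTG (Bhlhe41, Ciart, Cry1, Lonrf3, Per1 and Tef), 2 held TAGGTCA (Arntl and Nfil3) and 1 held TTATGTAA (Per3). Ciart held 3 matches and Per3 held 2.

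Arntl had levels of -2.52, -2.80 and -3.33 in the Nrf1 controls, -2.19, -3.73 and -3.75 in the Nrf2 controls, and -1.53, 1.54 and -3.10 in the Keap1 controls. Keap1 control 2 was highest and the single array above 0. Dbp had levels of 6.90, 6.87 and 6.76 in the Nrf1 controls, 6.38, 6.62 and 6.92 in the Nrf2 controls, and 5.76, 2.56 and 6.31 in the Keap1 controls. Keap1 control 2 was lowest, and the pooled SD of Dbp, 1.18, was 0.25 without it. Ciart and Per3 were not well above background in Keap1 control 2, at -4.97 and -6.41, and were above it on the other 8 control arrays, between -1.60 and 0.03 and between -3.59 and -2.56. Nr1d2, which encodes REV-ERB beta, was 0.16 in Keap1 control 2 against 2.15 to 2.95 elsewhere, and Tef was 1.80 against 3.30 to 3.94. Clock was 1.62 against -0.23 to 0.21, and Nfil3 was 3.71 against 0.76 to 3.24.

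Per1 and Per2 of the same loop did not set the array apart. Per1 was 1.38 in Keap1 control 2 and between 1.16 and 2.23 on the other arrays. Per2 was -0.70 there and between -0.98 and 1.09 elsewhere. Among the 16 clock and output genes above background on all 9 arrays, 8 had a pooled SD of at least 0.5. For 2 of them it was at least 1. Of all genes, 11.7% and 0.912% reached these bounds. The median of the 16 was 0.54 in control livers and 0.74 in mutant livers. In the mutants, Keap1 KD 1 stood apart the same way, with Arntl at 1.57, Dbp at 1.52 and Ciart at -6.20, against -4.71 to -1.25, 5.23 to 7.38 and -2.91 to -0.13 in the other 8 mutant arrays. The labels give no time of collection.

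**Figure D3:**
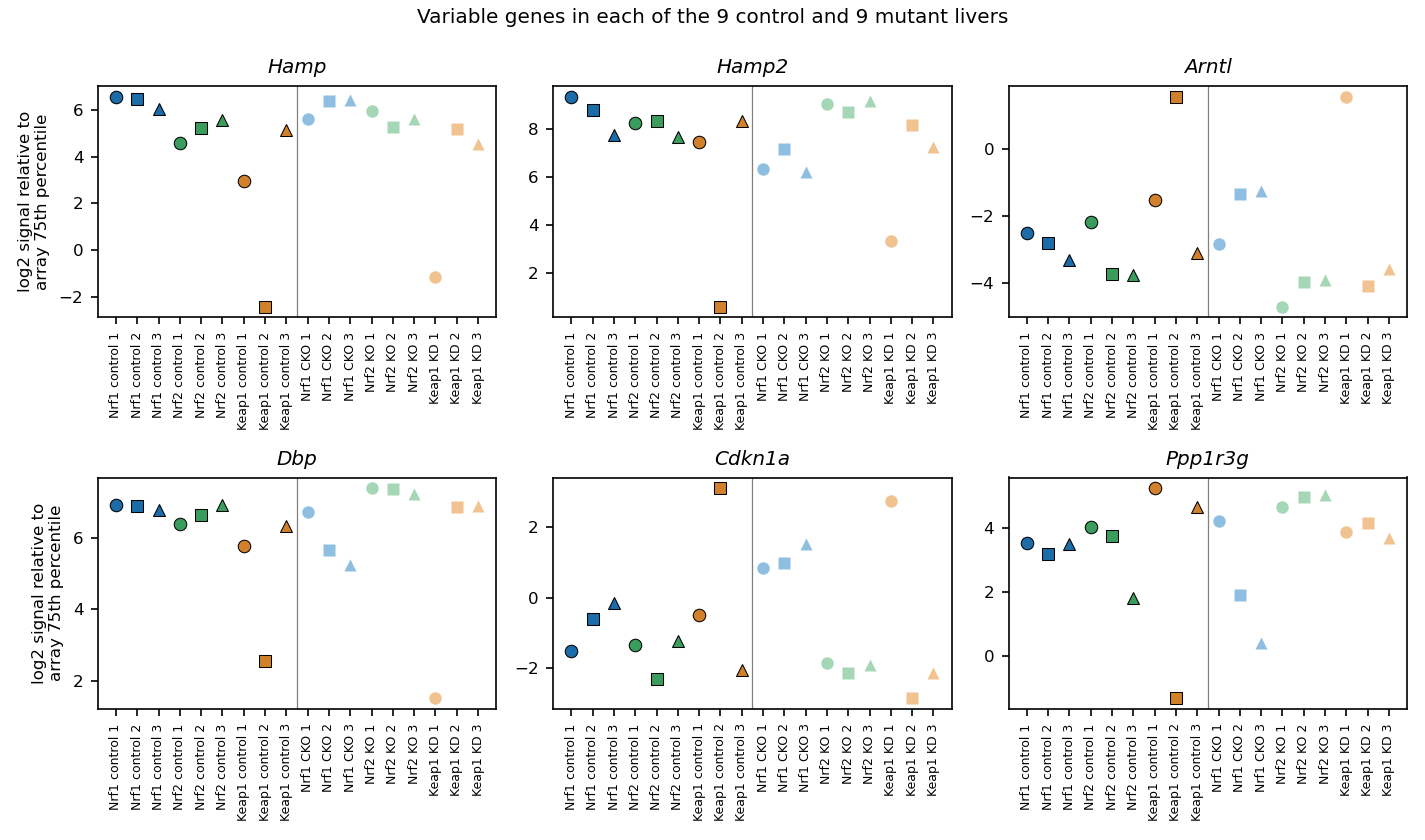
Level (log2 signal relative to the 75th percentile of the array) of 6 variable genes in each of the 9 control arrays (outlined, left of the line) and 9 mutant arrays (right). Keap1 control 2 is the lowest control array for Hamp, Hamp2, Dbp and Ppp1r3g and the highest for Arntl and Cdkn1a, and Keap1 KD 1 lies with it for Hamp, Hamp2, Arntl, Dbp and Cdkn1a.

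Single genes of glycogen storage, cell cycle arrest and protein folding also stood apart in Keap1 control 2. The lists they could be set beside did not shift there, with 14 of 25 fasting and PPARA target genes above the group mean (median deviation 0.05) and 11 of 20 heat shock genes (0.04). Ppp1r3g, a subunit that brings protein phosphatase 1 to glycogen, had levels of 3.53, 3.18 and 3.51 in the Nrf1 controls, 4.05, 3.76 and 1.80 in the Nrf2 controls, and 5.26, -1.31 and 4.68 in the Keap1 controls. Its pooled SD was 2.22, and 0.80 without Keap1 control 2. Unlike the hepcidin and clock genes, it was 3.87 in Keap1 KD 1, between the values of the other Keap1 KD arrays (3.68 and 4.17). Gys2, the liver glycogen synthase, was 5.41 in Keap1 control 2 and between 6.66 and 7.57 in the other control arrays. Cdkn1a, which encodes the cell cycle inhibitor p21, was 3.11 in Keap1 control 2 and between -2.32 and -0.14 elsewhere. In Keap1 KD 1 it was 2.75, and between -2.86 and 1.52 in the other mutant arrays. Hspa5, the chaperone BiP of the endoplasmic reticulum, was 8.40 against 6.60 to 7.57 in the other control arrays.

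Lipid and bile acid genes of the same array ran in both directions. Of 21 lipogenesis genes, 12 had a pooled SD of at least 0.5, against 11.7% of all genes. Keap1 control 2 lay below its group mean for 16 of 21 with a median deviation of -0.60. Thrsp, a regulator of fatty acid synthesis, was 5.50 in Keap1 control 2 and between 7.18 and 8.51 elsewhere. Acacb, acetyl-CoA carboxylase 2, was 1.45 against 2.99 to 4.97, and the elongase Elovl6 was 2.42 against 3.71 to 5.14. Me1, the malic enzyme, was 1.09 against 2.53 to 3.72. Cyp7a1, the rate-limiting enzyme of bile acid synthesis, was 0.32 against 1.82 to 3.69. Apoa4 was 7.48 against 3.27 to 5.35, and Bhmt, the betaine-homocysteine methyltransferase, 9.08 against 5.46 to 7.77. Fgf21, a hormone of fasting and stress, was 2.39 in Keap1 control 2 and 1.76 in Nrf1 control 3, and between -1.21 and 0.04 on the other 7 arrays.

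Major urinary proteins and Cyp2a genes were lowest in that array as well. Mup1 was 6.83 in Keap1 control 2 and between 9.05 and 10.18 elsewhere. Mup5 was 2.82 against 5.83 to 8.68, and Mup6 was -3.59 against -0.60 to 3.61. All 4 Mup genes of the list lay below the group mean there, with a median deviation of -1.39. Cyp2a4 was 7.89 against 9.09 to 9.80, and Cyp2a5, the coumarin hydroxylase, was 7.47 against 8.78 to 9.54. Keap1 KD 1 was not low for either, at 9.84 and 9.44. Over the 38 genes of pooled SD at least 1 for which Keap1 control 2 was the farthest array, it lay above the group mean for 18 and below it for 20. Keap1 KD 1 deviated from its own group mean to the same side for 33 of the 38, by at least 1 for 14 of them, against 63.7% of all genes on the same side. Nrf1 CKO 3 did so for 34, against 53.4% of all genes, but by at least 1 for 3. The other 7 mutant arrays did so for 3 to 21, against 35.4% to 55.3% of all genes, and by at least 1 for 0 or 1. Deviations were taken from the mean of each group, so the counts of arrays in the same group depend on each other. The counts of deviations of at least 1 have no share of all genes beside them, and the 38 genes were chosen for their spread. Keap1 control 2 lay on slide 5 and Keap1 KD 1 on slide 6, scanned on another day.

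Within the Nrf1 controls, interferon genes and immune cell markers were highest in replicate 2. The interferon response list covers genes such as Igtp, a GTPase of cell-autonomous defence, the chemokine Cxcl9 and the immunoproteasome subunit Psmb9. Of 27 genes on all 9 arrays, 14 had a pooled SD of at least 0.5, against 11.7% of all genes. All 27 lay above the group mean in Nrf1 control 2, with a median deviation of 0.45. In Nrf1 control 3 it was 0 of 27 (median -0.53) and in Nrf1 control 1 it was 10 (median -0.11). In the Nrf2 controls 1, 18 and 24 of 27 lay above, and in the Keap1 controls 13, 5 and 18. The median deviation of all genes was between -0.04 and 0.04 on each control array.

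Cxcl9 had levels of 2.62, 4.52 and 2.58 in the Nrf1 controls, 1.65, 2.57 and 3.34 in the Nrf2 controls, and 2.03, 1.50 and 1.90 in the Keap1 controls. Igtp had levels of 4.61, 6.28 and 4.24 in the Nrf1 controls, 4.42, 4.65 and 5.61 in the Nrf2 controls, and 4.45, 4.37 and 5.01 in the Keap1 controls. Nrf1 control 2 was highest for both genes, and Nrf2 control 3 next. Ubd, a ubiquitin-like protein induced by interferon gamma and tumour necrosis factor, was 1.63 in Nrf1 control 2 and 0.57 in Nrf2 control 3, and between -2.44 and -0.87 on the other 7 arrays. Cyp46a1, cholesterol 24-hydroxylase, was 0.35 in Nrf1 control 2 and between -4.02 and -2.90 elsewhere, with a pooled SD of 1.46 that was 0.39 without that array. In the Nrf1 CKO livers Cyp46a1 lay between -1.90 and -1.56.

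Kupffer cell markers moved with these genes in part. All 6 lay above the group mean in Nrf1 control 2 (median 0.58), in Nrf2 control 3 (0.17) and in Keap1 control 3 (0.59), and 0 of 6 did in Nrf1 control 3, Nrf2 control 1 and Keap1 control 2. The log2 of their summed signal was 6.57 to 7.51 in the Nrf1 controls, 7.55 to 8.20 in the Nrf2 controls and 6.44 to 7.65 in the Keap1 controls. Marco, a scavenger receptor of macrophages, was 4.64 in Nrf1 control 2 and 2.48 and 3.17 in the other Nrf1 controls. Clec4f, which marks Kupffer cells, was 5.73 there and 5.18 and 4.94 in the others. The neutrophil proteins S100a8 and S100a9 were -0.10 and 4.03 in Nrf1 control 2, against -2.78 and 1.14 in Nrf1 control 1 and -2.61 and 1.50 in Nrf1 control 3. The log2 of the summed neutrophil signal ran from 1.28 to 4.17 in the Nrf1 controls, from 1.69 to 2.32 in the Nrf2 controls and from 2.02 to 3.69 in the Keap1 controls, and Ngp was not tested. Their part in the interferon result was not tested.

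**Figure D4:**
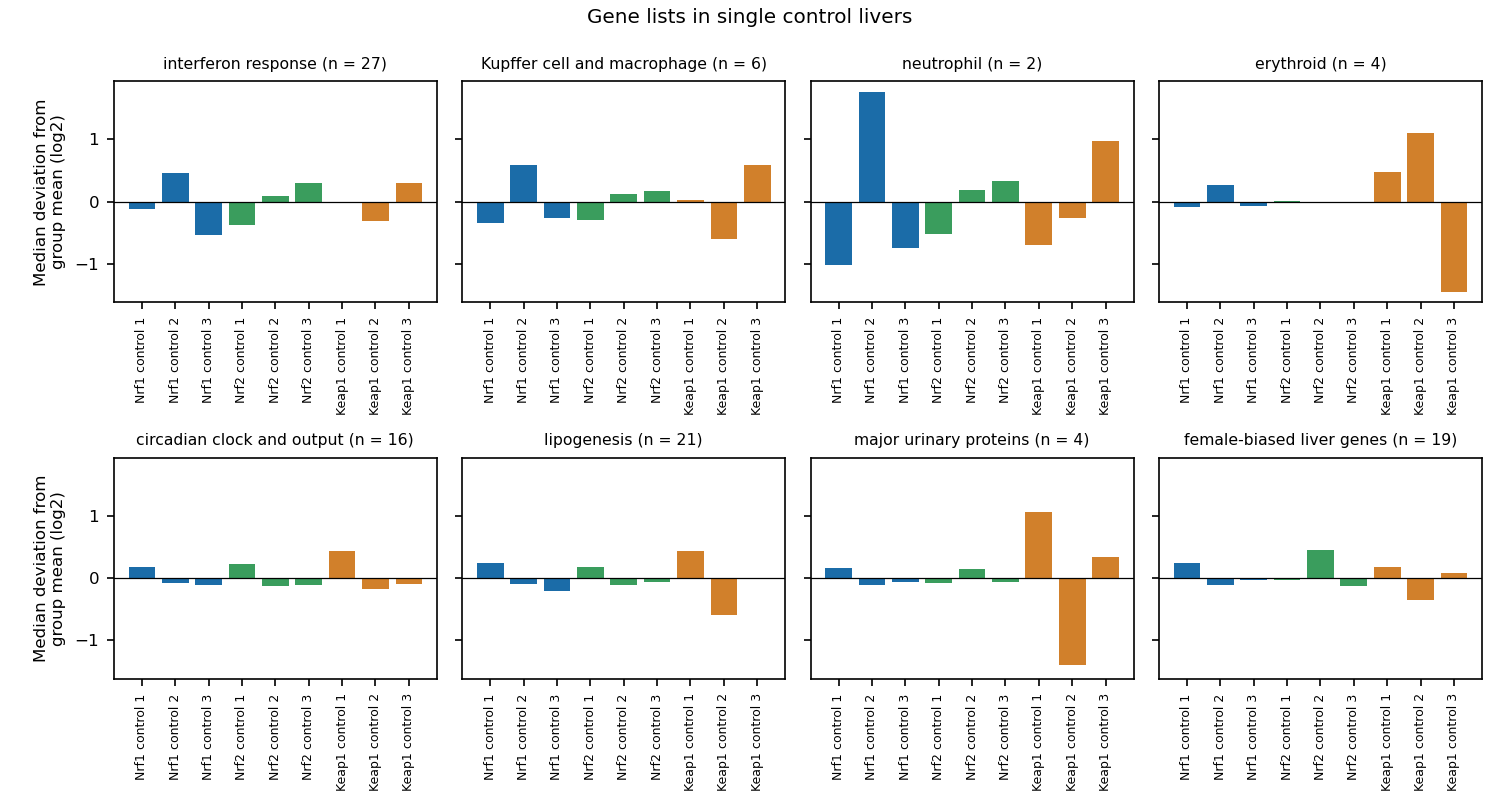
Median deviation from the group mean (log2) of 8 gene lists in each of the 9 control arrays, as bars from 0, coloured by control group, with the number of genes above background on all 9 arrays in brackets. The interferon, Kupffer and neutrophil lists are highest in Nrf1 control 2 within the Nrf1 group (0.45, 0.58 and 1.77), and the urinary protein list is lowest in Keap1 control 2 (-1.39).

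Sex-biased genes varied among these female livers. Female and male liver differ through the pattern of growth hormone release, and Cux2 is a transcription factor of female liver. Of 19 female-biased genes, 14 had a pooled SD of at least 0.5, with a median of 0.60, against 11.7% of all genes. Cux2 had levels of 0.64, 0.15 and 1.26 in the Nrf1 controls, -3.76, -1.49 and -1.25 in the Nrf2 controls, and -0.62, -3.95 and -0.41 in the Keap1 controls. Nrf2 control 1 and Keap1 control 2 were the low arrays. A1bg, a plasma glycoprotein, was 5.30, 3.55 and 5.94 in the Nrf1 controls, -1.12, 2.63 and 2.03 in the Nrf2 controls, and -3.45, -3.65 and -0.69 in the Keap1 controls. Of 15 male-biased genes, 7 had a pooled SD of at least 0.5. Hsd3b5, a male-biased steroid dehydrogenase, was -0.27 in Nrf2 control 1 and 3.71 and 3.22 in the other Nrf2 controls, and its pooled SD of 1.52 was 0.96 without Nrf2 control 1. The trypsin inhibitor Spink1 was 3.20 in Nrf2 control 1 and between -3.17 and 0.03 on the other arrays, with a pooled SD of 1.62 that was 0.67 without it. Dct, a melanin synthesis enzyme, was -0.53 in Nrf2 control 1 and between 3.35 and 4.30 in the other Nrf2 controls, but its other probe was above background on 0 control arrays.

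A few genes split the Nrf1 controls by slide. Cox7c, a subunit of cytochrome c oxidase, was -1.54 and -1.62 in Nrf1 controls 1 and 2 on slide 1, 1.57 in Nrf1 control 3 on slide 2, and between 1.91 and 2.57 in the Nrf2 and Keap1 controls. The 3 Nrf1 CKO arrays, also on slide 2, lay between 0.94 and 1.21. Of 48 respiratory chain genes, Cox7c was the single one with a pooled SD of at least 0.5. Rad51b, a DNA repair protein, was -1.33 and -0.84 on slide 1 and 2.94 in Nrf1 control 3, with Nrf1 CKO values of -0.57 to 1.12, and its second probe was above background on 0 control arrays. With 2 slides in 1 group, slide and sample cannot be told apart for these genes.

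Groups of control mice differed from each other in many genes. By limma's F test of equal means in the 3 groups, 5266 of 17721 genes (29.7%) had an adjusted p under 0.05. Nrf1 and Nrf2 controls differed in 5071 genes (28.6%), Nrf1 and Keap1 controls in 3242 (18.3%), and Keap1 and Nrf2 controls in 1222 (6.9%). Of the 100 genes of highest signal, 4 were called, against 11 with quantile normalization and 17 with normexp followed by quantile normalization. Leaving out any 1 Nrf2 control or Nrf1 control 2 gave 2, while leaving out Keap1 control 1 gave 8. The Nrf1 line was run on slides and a scan day of its own, and differed from the Nrf2 controls in strain and allele, so that line, strain, slide and day cannot be told apart. Keap1 control 1 was the single Keap1 control on the slide and scan day of the Nrf2 controls. With slide or scan day as a block, the contrast of Keap1 and Nrf2 controls therefore rested on that array alone.

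The 4 genes of highest signal that were called were plasma and metabolic genes. Hpx, the haem carrier hemopexin, had levels of 9.79 ± 0.21 in the Nrf1 controls, 8.58 ± 0.26 in the Nrf2 controls and 8.85 ± 0.22 in the Keap1 controls (SD, n = 3 arrays each), and its 3 Nrf1 values lay above the other 6 (limma F test, adjusted p = 0.000339). Cyp3a41a, a female-biased P450, averaged 9.86 ± 0.21, 9.28 ± 0.40 and 8.77 ± 0.28 in the same order (adjusted p = 0.0102). Gpx1, a glutathione peroxidase, averaged 9.83 ± 0.15, 9.60 ± 0.04 and 9.24 ± 0.26 (adjusted p = 0.0379). Akr1c6, a hydroxysteroid dehydrogenase, averaged 9.18 ± 0.28, 9.79 ± 0.10 and 9.29 ± 0.21 (adjusted p = 0.0356).

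The largest F statistics belonged to genes that set the Nrf1 controls apart. Ifi202b, an interferon-inducible DNA-binding protein, had levels of 1.43, 1.02 and 1.30 in the Nrf1 controls and was not well above background on any Nrf2 or Keap1 control array. It was at least 43.4-fold higher in Nrf1 than in Nrf2 controls, and at least 72.6-fold higher than in Keap1 controls (limma F test, adjusted p = 2.8e-08). These bounds set the dim group at the lowest signal well above background on each array. Psap, which encodes the lysosomal protein prosaposin, had levels of 1.77, 1.33 and 1.54 in the Nrf1 controls, 4.95, 4.81 and 5.26 in the Nrf2 controls, and 5.16, 5.28 and 4.68 in the Keap1 controls. Its other probe differed in the same direction, with means of 0.79, 4.43 and 4.62. Psap was lower in Nrf1 than in Nrf2 controls by a log2 difference of -3.46 (SE 0.21).

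Camk2b, a subunit of calmodulin-dependent kinase, was not well above background in any Nrf1 control, and was at least 18.3-fold higher in Nrf2 and at least 15.3-fold higher in Keap1 controls than there. Fzd5, a Wnt receptor, was likewise not above background in the Nrf1 controls, and was at least 4.55-fold and 3.77-fold higher in Nrf2 and Keap1 controls. Its other probe was above background on 4 control arrays, with means of -4.53, -4.22 and -3.82. Intu, Slc4a9, Amelx, Fam83f, Olfr569 and Rnf25 completed the 10, all lower in the Nrf1 controls by log2 differences of -4.10 to -2.80 from the Nrf2 controls. Olfr569 and Rnf25 were above background on 7 of the 9 control arrays, so their differences rest on dim Nrf1 values. The 2 other probes of Intu did not show this size of difference, with Nrf1 and Nrf2 means of -3.15 and -3.38 for one and -2.86 and -1.91 for the other. Camk2b did not hold at the level of the Nrf1 controls in the Nrf1 CKO livers, where it was -1.89, -2.31 and -2.86, below every Nrf2 and Keap1 control. Fzd5 was below the lowest signal well above background in the Nrf1 CKO livers too, so its values there have no order against the Nrf1 controls.

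**Figure D5:**
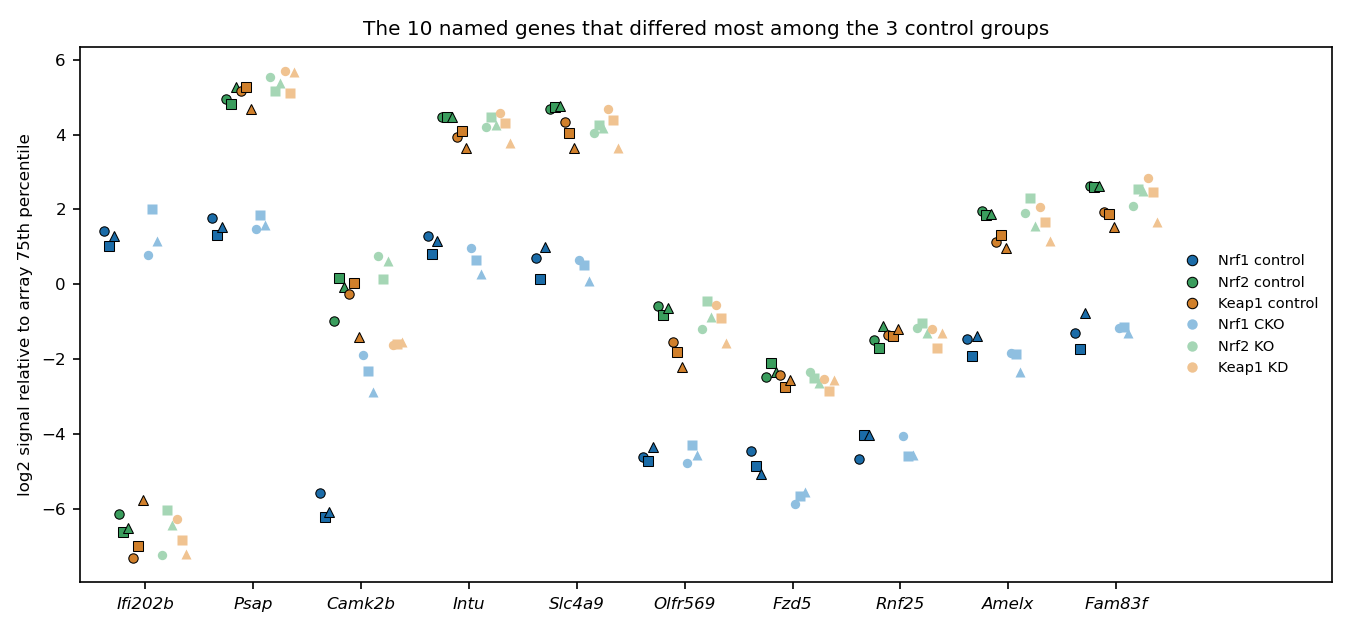
Level (log2 signal relative to the 75th percentile of the array) of the 10 genes with a symbol and the largest F statistic among control groups. Points are single arrays, 9 control (outlined) and 9 mutant, with marker shapes for replicates 1 to 3, and the Nrf1 controls lie apart from the other 6 control arrays for each gene, above them for Ifi202b and below them for the other 9.

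The count called by the F test differed by list, beside 29.7% of all genes. By list, 13 of 26 immediate early and glucocorticoid genes, 13 of 26 proliferation genes and 10 of 25 cholesterol synthesis genes were called, against 5 of 35 plasma proteins, 5 of 44 ribosomal proteins and 7 of 48 respiratory chain subunits. The metallothioneins Mt1 and Mt2, which bind zinc and copper, were higher in Nrf1 controls, with Mt1 at 8.27 ± 0.20, against 5.78 ± 0.53 in Nrf2 and 5.95 ± 1.12 in Keap1 controls (SD, n = 3 arrays each; limma F test, adjusted p = 0.00287). Apob, the structural protein of very-low-density lipoprotein, was lower in Nrf1 controls, at 5.90 ± 0.14, against 7.88 ± 0.52 in Nrf2 and 7.47 ± 0.28 in Keap1 controls (adjusted p = 0.000462).

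In the mutants, few of the 100 genes of highest control signal were called outside the Nrf1 line. In Nrf1 CKO against Nrf1 control livers, 39 of the 100 were called, all lower, against 18% of all genes called and 9.73% called lower (limma, adjusted p under 0.05). Their median log2 change was -0.51 and that of all genes -0.07. After quantile normalization 5 of the 100 were called, all lower, and the median was -0.00. That scaling gives every array the same distribution, so it largely takes out a shift of the highest signals and cannot test it. With normexp followed by quantile normalization 3 were called higher and 8 lower. Nrf1 controls 1 and 2 shared no slide with an Nrf1 CKO array, so with slide as a block the contrast rested on Nrf1 control 3 alone. The median log2 change of the 100 was then -0.42. Without Nrf1 control 1 the count was 7 and without Nrf1 control 2 it was 13, so the count moved with the scaling and with those arrays.

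Gnmt, which uses up methyl groups from S-adenosylmethionine, had levels of 7.64, 7.12 and 6.46 in Nrf1 CKO livers, against 9.16, 9.35 and 8.86 in Nrf1 control livers. The groups did not overlap, and the log2 change was -2.05 (SE 0.29, limma adjusted p = 0.000866). Uox, which degrades uric acid, had levels of 8.94, 8.04 and 7.77 in Nrf1 CKO livers, against 9.79, 9.68 and 9.46 in Nrf1 control livers (log2 change -1.39, SE 0.25, limma adjusted p = 0.00293). Inmt, a methyltransferase for indole amines, had a log2 change of -1.50 (SE 0.47, limma adjusted p = 0.0387), with an Nrf1 CKO value of 8.04 above the lowest Nrf1 control, 7.68. The Inmt call was lost without Nrf1 control 1 (limma adjusted p = 0.123), without Nrf1 control 2 (0.104), with quantile normalization (0.100), with normexp and quantile normalization (0.114), with no filter (0.0738) and with the line alone (0.137). With slide as a block the contrast rested on Nrf1 control 3, the single Nrf1 control on the slide of the Nrf1 CKO arrays. The log2 changes were then -1.79 for Gnmt, -1.21 for Uox and -1.08 for Inmt.

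In Nrf2 KO against Nrf2 control livers, limma called 0 of the 100, against 0.0621% of all genes, and 5 of the 100 had an unadjusted p under 0.05. The Nrf2 KO and Nrf2 control arrays shared no slide or scan day, so genotype, slide and day cannot be told apart there. In Keap1 KD against Keap1 control livers limma called 1, against 5.59% of all genes. This was Gstm1, a glutathione transferase known as an NRF2 target, with levels of 10.55, 10.17 and 9.88 in Keap1 KD livers, against 9.66, 9.03 and 8.09 in Keap1 control livers. The groups did not overlap, and the log2 change was 1.27 (SE 0.33, limma adjusted p = 0.0332). Without Keap1 control 2 the adjusted p of Gstm1 by limma was 0.0625, and without Keap1 control 3 it was 0.140. The number called was 0 without either array and 3 without Keap1 control 1. With slide as a block the adjusted p was 0.111 and with scan day as a block 0.0757.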

How the data were processed

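RNA of 18 mouse livers was measured on single-colour Agilent arrays, 3 in each of 6 groups. The deposited scanner files hold intensity values extracted with Agilent Feature Extraction 10.7.3.1, per the file headers, background-subtracted and detrended within the array but not normalized between arrays. The deposited series table held the same intensity values at all 810324 entries compared. Flags for spots above background, saturated or outlying were used as deposited.

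From these, outlier spots and control spots were left out, spots of a probe were averaged, and log2 of the deposited signal was taken minus log2 of the 75th percentile of the array. A gene was represented by its brightest probe and tested where any group had all 3 of its arrays above background, which kept 17721 genes. Of 41174 probes, 26718 (64.9%) were named through RefSeq, and probes without a symbol stayed in the ranks, counts and tests. A few items are not reported here. Group differences were tested with limma 3.58.1 in R 4.3.3, with 6 group means over 18 arrays and Benjamini-Hochberg adjustment over all genes. The number of arrays limits the precision. On simulated data of 17670 genes, the F test among control groups recovered 37% of 200 genes changed by a log2 of 1 and 82.5% of those changed by 2. Only those 200 genes were changed there, and in the Keap1 controls alone. In the data 29.7% of genes were called, so these recovery rates need not hold for them.

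Genes were named by rule: the 30 of highest signal and up to 4 per abundance list, the 25 of highest pooled SD, the 10 of largest F, up to 3 most variable members of each list and those not above background, the marker genes, the 3 genes of the lines, the 5 most like each of the 3 most variable genes, and up to 4 of the 100 changed most in each mutant line. Genes outside that rule that are named with values were chosen after their values were seen. The members and gene lists were chosen with earlier results of these data known. Alternatives covered scaling, background correction, probe choice, filters, blocks and leaving out each control array.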

Additional observations from a re-analysis of the deposited data

Results flagged for a closer look

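Among genes of highest control signal with a called change in a mutant line, 4 reported differences between lines passed limma's test of the difference itself. The log2 change of Gnmt in Nrf1 CKO minus that in Nrf2 KO was -2.23 (limma adjusted p = 0.00985), and minus that in Keap1 KD it was -2.10 (adjusted p = 0.0142). The log2 change of Uox in Nrf1 CKO minus that in Nrf2 KO was -1.51 (limma adjusted p = 0.0247). The log2 change of Gstm1 in Nrf2 KO minus that in Keap1 KD was -2.14 (limma adjusted p = 0.0250). The Nrf1 line had slides and a scan day of its own, which cannot be told apart from the line. The Nrf2 and Keap1 lines shared slides and scan days but differ in strain. Within the Nrf2 line, the Nrf2 KO arrays lay on slides 4, 5 and 6 and the Nrf2 controls on slide 3. Their scan days differed too, so slide and day cannot be told apart from the Nrf2 KO change.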

How the results depend on the processing

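No named gene's called change reversed, but shifts of the whole 100 did. The median of Keap1 control 3 was -0.31, and 0.02 with quantile normalization, which largely takes out such a shift by design. The median log2 change in Nrf2 KO was -0.11, and 0.07 with slide and 0.15 with scan day as a block. The Nrf2 KO arrays shared no slide or scan day with the Nrf2 controls. Those 2 blocked contrasts therefore ran through Keap1 control 1, the single other array on the slide and day of the Nrf2 controls. The 100 genes of highest signal shared 98 to 100 genes with those found when 1 control array was left out. The median pooled SD was 0.242 to 0.283 without 1 array, 0.342 with scaling to the array median and 0.197 with normexp followed by quantile normalization (below, normexp with quantile), which also shared 64 of the 100 most variable genes and left 50 at a pooled SD of at least 1. Without 1 array that count was 108 to 170, and 67 to 96 of the 100 most variable were shared. Including genes above background in at least 1 control group gave 304, with 36 shared. The number of genes differing among control groups was 3644 to 5576 without 1 array. It was 3666 with the control arrays alone and 5451 with quantile normalization. With slide as a random block, added after seeing the data, it was 5359, and with slide or scan day as a fixed block it could not be fitted. Among the 100, the 4 called became 11 with quantile normalization, 17 with normexp with quantile, 2 with no filter and 2 to 8 without 1 array. In Nrf1 CKO, 39 became 5 with quantile normalization, 22 with the array median, 11 with normexp with quantile, 14 with no filter, 19 with the line alone and 7 to 46 without 1 array. In Nrf2 KO, 0 became 2 with normexp with quantile and 0 without any 1 array. In Keap1 KD, 1 became 3 with normexp with quantile, 0 with no filter, slide, scan day or the line alone, and 0 to 3 without 1 array. Whether replicate numbers pair the samples was not settled: of 18 same-numbered pairs, correlations ran from -0.44 to 0.24 and 8 were best with their own number. With the replicate number as a block, 5341 genes and 7 of the 100 differed among control groups, and 52 of the 100 were called in Nrf1 CKO. The cause of these shifts was not tested. Genes near background have no dependable fold, since signal over background limits them.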
